A study of Mus musculus with 12 samples.

Results

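Cirbp encodes the cold-inducible RNA-binding protein, and its RNA was followed here in primary mouse melanocytes kept in normal air or in hypoxia. It is 1 of 8102 genes that could be named on the array, where 1 probe among 46628 in all was recognised as its own. The probe was found by reading the number in each probe name as an NCBI mouse gene number. Of 46576 probes without controls 9796 could be named this way, so a further Cirbp probe may lie among the rest. The gene was selected on its own hypoxia values, a lower signal in hypoxia than in normoxia in all 3 kinds of culture, so those differences describe it and were not tested. Only comparisons between cultures, averaged over the oxygen levels, were tested for Cirbp.

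CIRBP protein has an RNA recognition motif followed by an arginine- and glycine-rich tail. It is made in larger amounts when mammalian cells are moderately cooled, and it moves from the nucleus into stress granules when cells are stressed. It binds messenger RNAs and alters their stability and translation, the messenger of the circadian regulator CLOCK among them. Its closest relative in sequence and in the cold response is Rbm3. The hypoxia-inducible factors (HIF) are the best-known transcription factors of low oxygen, and they raise genes of glycolysis in most cell types.

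The 12 arrays formed 6 groups of 2. ATF2-/- cultures with 4-OHT, ATF2-/- cultures without it and WT cultures that also had no 4-OHT were each held for 12 h in normoxia or in hypoxia, which was 1% O2. The cells came from the skin of newborn pups, and the strain is labelled FVB/129/OlaHsd/C57Bl/6. All mice lacked Ink4a and carried a mutant NRAS transgene that doxycycline induces, and every culture received doxycycline. By the study's genotypes the mice also carried a CreER recombinase driven by the tyrosinase promoter, which acts in pigment cells, WT mice included, and only the ATF2-/- mice had floxed Atf2. 4-OHT, the active form of tamoxifen, switches this Cre on. By this design the ATF2-/- cultures without 4-OHT should still have had intact Atf2, despite the name of their genotype, and in cells that do not use the tyrosinase promoter Atf2 should stay intact with 4-OHT too. WT cultures with 4-OHT were not analysed here, so an effect of 4-OHT itself cannot be told apart from loss of Atf2. Atf2 itself was above background on 0 of 12 arrays and gave no check of the deletion. Arrays with replicate number 1 lay on 1 slide and arrays with number 2 on another. The labels do not say whether the 2 replicates came from separate animals, so p-values measure only the spread between these arrays.

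The arrays had 10871 to 13025 probes above background. Among the melanocyte markers with a probe, 4 of 4 were above background on every array. They included Dct, an enzyme of melanin synthesis. Their summed intensity was 31716 to 45081 units. Trpm1, a cation channel of melanocytes and a small part of these sums, varied more, from 215 to 2742 units. It was higher in ATF2-/- cultures with 4-OHT than without it, averaged over oxygen (difference 1.44, limma adjusted p = 0.0108), and lower in the latter than in WT cultures (difference -1.23, limma adjusted p = 0.0264). Of 5 myeloid markers with a named probe, among 8 listed, 0 were above background on any array. The groups differed most in skeletal muscle markers, of which 20 were listed and 5 had a named probe. All 5 were above background in ATF2-/- cultures with 4-OHT at both oxygen levels and in ATF2-/- cultures without 4-OHT in normoxia, with summed intensities of 5994 to 9926 units. In ATF2-/- cultures without 4-OHT in hypoxia only Eno3, a muscle form of enolase, was above background, and the sums were 325 and 434. The same held in WT cultures, where the 4 sums ran from 221 to 304. The acetylcholine receptor subunits Chrna1 and Chrng, the heavy chain Myh7 and the carbonic anhydrase Car3 were thus at background in these 6 arrays. Fibroblast markers, 8 of 14 listed with a named probe, followed in part. Of these, 4 of 8 were above background where muscle markers were high. There was 1 in ATF2-/- cultures without 4-OHT in hypoxia, 2 in WT cultures in normoxia and 1 in WT cultures in hypoxia. In a mixed culture, fewer cells of a type and less RNA per cell cannot be told apart.

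**Figure D1:**
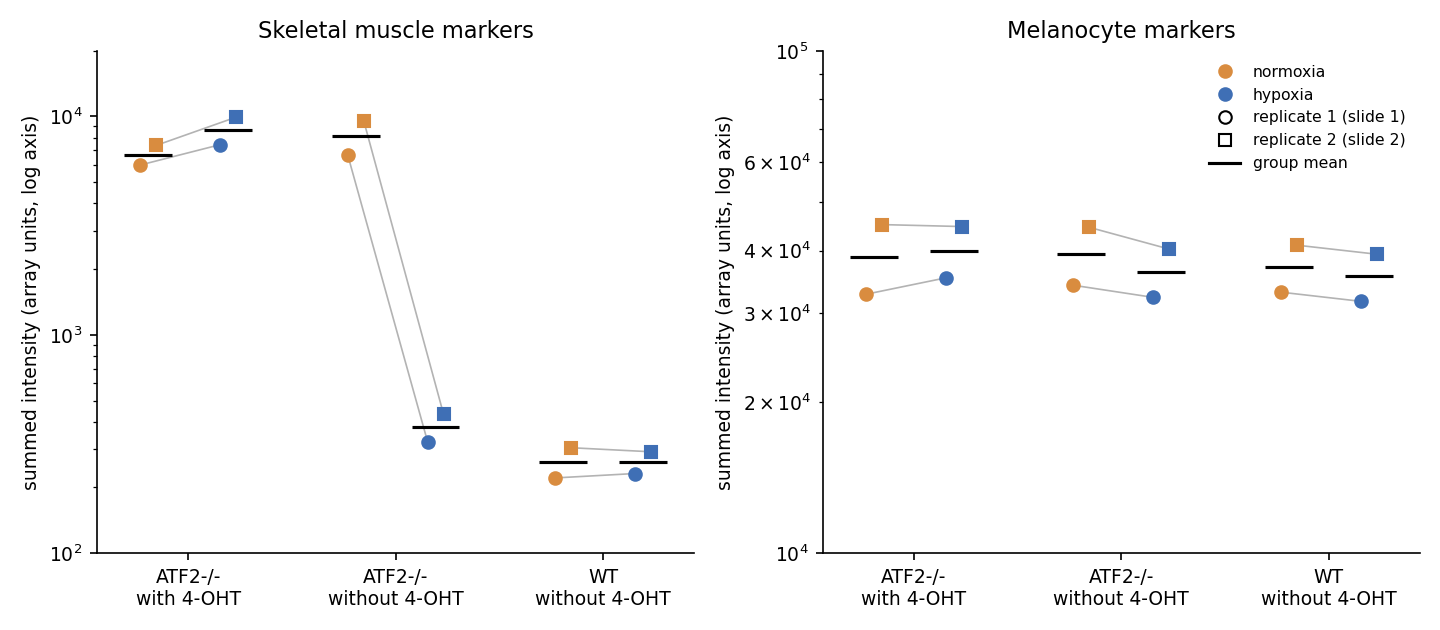
Summed deposited intensity (array units, log axis) of the 5 skeletal muscle markers (left) and the 4 melanocyte markers (right) with a named probe. Points are single arrays, circles for slide 1 and squares for slide 2, grey lines join arrays of the same culture and slide, and black bars are group means. The muscle sums lie between 5994 and 9926 in 3 groups and between 221 and 434 in the other 3, and the melanocyte sums lie between 31716 and 45081 on all 12 arrays.

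Cirbp lies on mouse chromosome 10 (GRCm38.p6, 80165990 to 80172786). The sequence of the array probe was not used here, and its place in the transcript is not known. The 250 bases before 1 of 2 start sites in the RefSeq promoter table, chr10:80167589-80167838 on the plus strand (GRCm38.p6), lie inside the annotated gene, which begins further upstream, and are shown because they hold the letters TCCCCGCC, known as a mild cold response element of this gene. Capitals mark that match and both matches of GCGTG, a core that HIF can bind.

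Cirbp, bases before this start site: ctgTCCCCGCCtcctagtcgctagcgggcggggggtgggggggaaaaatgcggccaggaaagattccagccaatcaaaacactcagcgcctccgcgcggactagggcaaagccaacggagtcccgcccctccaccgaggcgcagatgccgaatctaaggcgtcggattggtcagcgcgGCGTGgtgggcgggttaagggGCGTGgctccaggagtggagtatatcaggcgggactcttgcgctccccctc

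The region was 65.6% G and C. TCCCCGCC began 247 bases before the start site and was the only match in the region on either strand. Of the 32851 windows of the same length before start sites in the RefSeq table, 4.64% held it on either strand. GCGTG began 72 and 51 bases before the start site, and 28.2% of all windows held it. The other HIF core, ACGTG, was not in the region and was in 16.6% of windows. The GC box GGGCGG occurred 3 times and the CCAAT box 2 times, counting both strands, and 32.7% and 33.9% of all windows held them. GAANNTTC, a pair of heat shock element units, was not found and was in 6.69% of windows. None of the matches in the Cirbp region overlapped. The window before the other Cirbp start site held 0 matches of TCCCCGCC, 2 of GCGTG, 4 GC boxes and 0 CCAAT boxes. The shares above are for single windows, and the region shown was picked from 2. These are matches of letters and not measured sites.

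Cirbp was detected above background on 12 of 12 arrays. In ATF2-/- cultures with 4-OHT its deposited intensity was 274 and 409.8 units in normoxia, and 176 and 242 in hypoxia. Without 4-OHT, ATF2-/- cultures gave 313 and 457 in normoxia, and 102 and 121 in hypoxia. WT cultures gave 231 and 358 in normoxia, and 116 and 149 in hypoxia. The second value of each pair, from slide 2, was always the higher. After background correction and quantile normalization the slide 2 value was the higher in 3 of 6 groups, and all further values are on that normalized log2 scale unless array units are named.

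The normoxia arrays lay from 8.12 to 8.55 and the hypoxia arrays from 6.52 to 7.57, so no hypoxia array of any culture reached a normoxia array. In normoxia the group means were 8.50 ± 0.06 (SD, n = 2) in ATF2-/- cultures without 4-OHT, 8.35 ± 0.28 (SD, n = 2) in ATF2-/- cultures with 4-OHT and 8.23 ± 0.16 (SD, n = 2) in WT cultures. Each of these overlapped its neighbour in the order. In hypoxia the order of the cultures was different. ATF2-/- cultures with 4-OHT stood at 7.56 ± 0.02 (SD, n = 2), with arrays at 7.57 and 7.55. WT cultures stood at 6.82 ± 0.03 (SD, n = 2), with arrays at 6.80 and 6.84. ATF2-/- cultures without 4-OHT stood at 6.63 ± 0.16 (SD, n = 2), with arrays at 6.74 and 6.52. The 3 hypoxia groups did not overlap, but the gap of 0.19 between the lower pair was close to the SD of the lowest group.

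**Figure D2:**
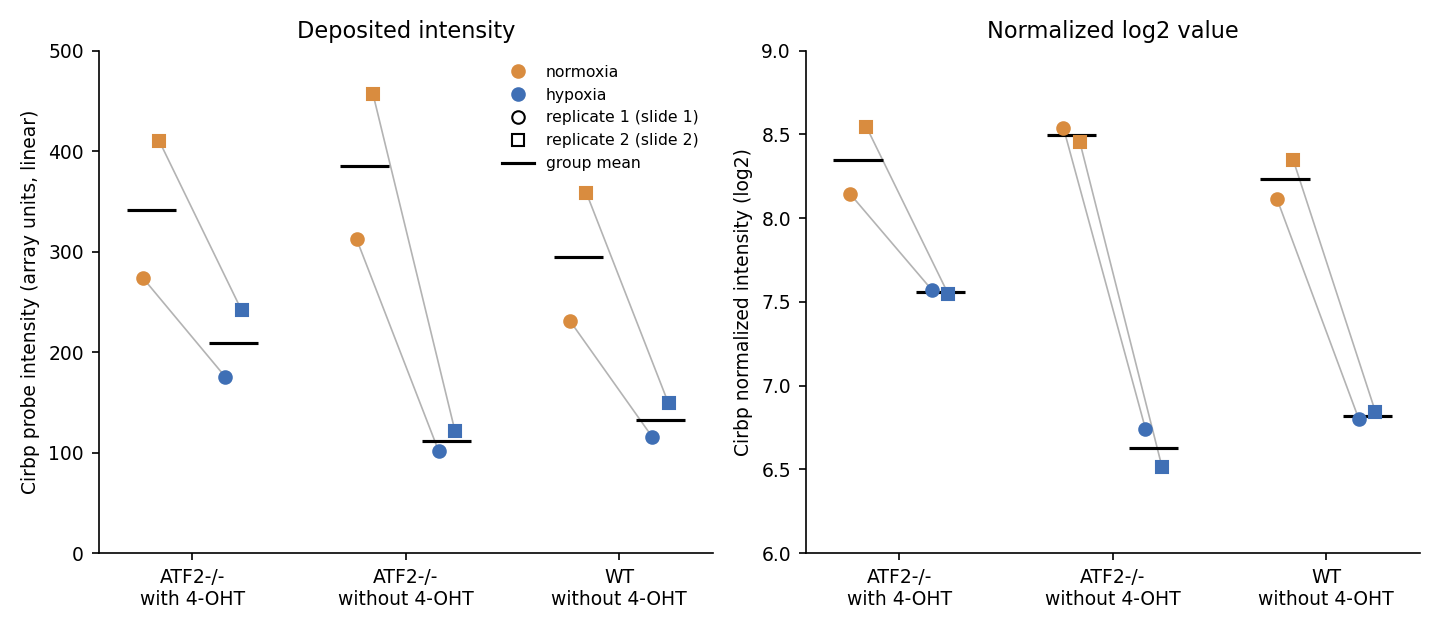
Cirbp probe intensity as deposited (left, linear array units) and after normalization (right, log2; the axis starts at 6) in the 6 groups. Points are single arrays, circles for slide 1 and squares for slide 2, grey lines join arrays of the same culture and slide, and black bars are group means. On the log2 scale all 6 hypoxia arrays sit at or under 7.57 and all 6 normoxia arrays at or over 8.12.

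Within cultures, hypoxia minus normoxia was -1.87 in ATF2-/- cultures without 4-OHT, which left 27.4% of the normoxia level. The within-slide differences were -1.80 and -1.94. In WT cultures it was -1.41, with -1.32 and -1.50 within slides, which left 37.6%. With 4-OHT, ATF2-/- cultures had -0.79, with -0.58 and -1.0 within slides, which left 57.9%. All 6 differences within slides thus pointed the same way, and the smallest difference of the other cultures (-1.32) was larger in size than the largest with 4-OHT (-1.0). The mean over cultures was -1.36. Ordered by size of fall, Cirbp was number 48 of 14899 probes above background on at least 1 array in that mean, and number 131 in WT cultures, 162 in ATF2-/- cultures with 4-OHT and 252 in ATF2-/- cultures without 4-OHT. Among 3777 named genes it was number 8 in the mean. These ranks follow from the way the gene was selected.

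For scale, limma called 5.62% of the 14899 probes higher and 6.65% lower in hypoxia in ATF2-/- cultures without 4-OHT at an adjusted p under 0.05. In WT cultures it called 5.3% higher and 4.85% lower, and in the mean of the 3 cultures 4.61% higher and 5.21% lower. With 4-OHT it called 0.0268% higher and 0% lower, where 1245 probes had an unadjusted p under 0.05. The median of all probes moved by at most 0.04 in any of these comparisons.

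The hypoxia difference of Cirbp in ATF2-/- cultures without 4-OHT coincided with the loss of skeletal muscle markers described above, and the part of these cells in it was not tested. Fibroblast markers moved there too: limma called 3 of 4 lower (Col6a1, Dcn and Fbln2, with changes of -2.30, -0.86 and -2.24). It called 1 of 2 keratinocyte markers lower, the keratin Krt17 (change -1.69). Eng, the only endothelial marker above background, was called higher (1.15), and the endothelial Pecam1 was above background on 0 arrays. Of all probes, 5.62% were called higher and 6.65% lower there. In the other cultures limma called 0 of 5 muscle markers in either direction. Their sums in WT cultures were 221 and 304 in normoxia and 232 and 291 in hypoxia. There 0 of 5 had an unadjusted limma p under 0.05, against 3942 of the 14899 probes. In ATF2-/- cultures with 4-OHT the sums were 5994 and 7373 against 7427 and 9926. There 3 of 5 had an unadjusted limma p under 0.05, against 1245 of the 14899 probes. Since limma called only 0.0268% of all probes higher and 0% lower there, the lack of calls cannot show that these markers were unchanged. In WT cultures limma called 1 of 4 fibroblast markers lower in hypoxia, the proteoglycan Dcn (change -1.21, limma adjusted p = 0.00214), and 0 higher. The median change of the 4 was 0.07, and Col5a1 went from 239 and 382 units to 467 and 530 without a call. Of 2 keratinocyte markers 1 was called higher, Krt17 (1.02, limma adjusted p = 0.0120), and 0 lower. Of all probes, 5.3% were called higher and 4.85% lower there. The mean of those 2 kinds of culture alone, a choice made after seeing the data, gave a Cirbp difference of -1.10.

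The differences between cultures in the size of the hypoxia change were not tested, since they use the values that selected the gene. With 4-OHT the ATF2-/- change was less negative by 1.08 than without it (1.22 and 0.94 within slides). Against WT it was less negative by 0.62 (0.74 and 0.50 within slides). The change without 4-OHT exceeded that of WT cultures, with a difference of -0.46 (-0.48 and -0.44 within slides). Each difference had the same sign on both slides. With the detection p-values as deposited, 1 of the alternatives below, the changes lay closer together. They were -0.66 with 4-OHT, -1.20 in ATF2-/- cultures without it and -0.85 in WT cultures.

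Averaged over the oxygen levels, Cirbp was higher in ATF2-/- cultures with 4-OHT than in those without it by 0.39 ± 0.13 (SE of the limma fit, adjusted p = 0.0381 over 14899 probes), with 0.22 and 0.56 within slides. The difference was -0.15 in normoxia and 0.93 in hypoxia, so it came from the hypoxia arrays. This call was lost without any 1 of 11 of the 12 arrays (adjusted p of the limma fits up to 0.143) and under 4 other choices of processing. In the same comparison 16.2% of all probes were called higher and 16.4% lower. The muscle marker sums were 5994 and 7373 units with 4-OHT against 6659 and 9563 without it in normoxia, and 7427 and 9926 against 325 and 434 in hypoxia. Averaged over oxygen, limma also called 3 of 4 fibroblast markers higher with 4-OHT, Fbln2 (1.27), Col6a1 (1.06) and Dcn (0.90), and Col5a1 lower (-0.35). It called 1 of 2 keratinocyte markers, Krt17 (1.30), and 1 of 4 melanocyte markers, Trpm1, higher. Eng, the only endothelial marker above background, was called lower (-1.61). These markers moved with the Cirbp difference, and their part in it was not tested.

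Against WT cultures, Cirbp was higher in ATF2-/- cultures with 4-OHT by 0.43 ± 0.13 (SE, limma adjusted p = 0.0307), with 0.40 and 0.45 within slides. The difference was 0.11 in normoxia, where the arrays overlapped, and 0.74 in hypoxia, where they did not. The call was lost without any 1 of 6 arrays and under 3 other choices. In this comparison 12.3% of all probes were called higher and 14% lower. ATF2-/- cultures without 4-OHT and WT cultures did not differ by the test. The difference was 0.04, with a 95% interval of -0.27 to 0.35 and a limma adjusted p of 0.864, while 13.4% of all probes were called higher and 13.5% lower. It was 0.27 in normoxia, where the muscle marker sums were 6659 and 9563 units on the ATF2-/- side against 221 and 304, and -0.19 in hypoxia, where they were 325 and 434 against 232 and 291. Xist, which is expressed from the inactive X, was above background on 8 of 8 ATF2-/- arrays and 0 of 4 WT arrays, and the Y-linked Eif2s3y on 0 of 8 and 4 of 4. Genotype and sex cannot be told apart in both comparisons with WT.

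Of the RNA-binding relatives of Cirbp, a list of 12 genes with cold shock or glycine-rich domains, 5 had a named probe and 3 of these were above background on at least 1 array. In the mean of the 3 cultures limma called 0 of the 3, against 4.61% of all probes higher and 5.21% lower. There 0 had an unadjusted p under 0.05, against 3864 of the 14899 probes, and their median change was 0.03. In WT cultures alone 2 of 3 had an unadjusted p under 0.05, against 3942 probes, and the median was -0.49. With 3 genes, 0 calls in the mean cannot show that the relatives did not respond. Rbm3, the other cold-inducible member, was above background on 0 of 12 arrays, with intensities of 28.0 to 58.2 units, so its RNA could not be followed beside that of Cirbp. Ybx1, a cold shock domain protein that packs messenger RNA, had a mean change of 0.10, and Carhsp1, a small cold shock domain protein, one of -0.09. Carhsp1 changed by -0.49 in WT cultures (limma adjusted p = 0.0877), by 0.22 with 4-OHT and by -0.01 in ATF2-/- cultures without it. Neither gene was called in any culture.

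Rbmx, a glycine-rich nuclear splicing factor, went opposite ways. Its normalized log2 values in ATF2-/- cultures without 4-OHT were 7.39 and 7.62 in normoxia and 8.34 and 8.43 in hypoxia, a rise of 0.88 ± 0.16 (SE, limma adjusted p = 0.00408). In WT cultures they were 7.36 and 7.28 in normoxia and 6.45 and 6.56 in hypoxia, a fall of 0.81 ± 0.16 (change -0.81, SE, limma adjusted p = 0.0132). With 4-OHT all 4 arrays lay between 6.57 and 6.71, and the difference was 0.01. Cirbp was lower in hypoxia in all 3. Rbmx has near-identical copies in the genome, so its probe may read more than this gene.

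The second list held 16 genes that modify CIRBP, carry it into the nucleus or share stress granules with it. Of the 9 above background, 2 rose in the mean of the 3 cultures and 0 fell, against 4.61% and 5.21% of all probes. Their median change was 0.29, against 0.01 for all probes. G3bp1, a core stress granule protein, rose by 0.49 ± 0.10 (SE, limma adjusted p = 0.0111). In WT cultures it went from 9.70 and 9.63 to 10.31 and 10.37, and in ATF2-/- cultures with 4-OHT from 9.26 and 9.34 to 10.05 and 9.70. The ATF2-/- arrays without 4-OHT were at 10.27 and 10.04 in normoxia and 10.35 and 10.41 in hypoxia, and the difference of 0.23 did not pass. Tial1, an RNA-binding protein that seeds stress granules, rose by 0.37 ± 0.10 (SE, limma adjusted p = 0.0374), but its difference was -0.01 in ATF2-/- cultures with 4-OHT. The call of Tial1 in the mean was lost without any 1 of 8 arrays, with limma adjusted p-values up to 0.129. Between ATF2-/- cultures, averaged over oxygen, G3bp1 was lower with 4-OHT than without it (difference -0.68, limma adjusted p = 0.00173). So was Prmt1, the methyltransferase that acts on the tail of CIRBP (difference -0.49, limma adjusted p = 0.00618), and so was Eif4e, the cap-binding translation factor (-0.45, limma adjusted p = 0.0319). Caprin1, a partner of G3bp1 in stress granules, was higher (0.46, limma adjusted p = 0.0364). Thus 1 of the 9 was called higher and 3 lower, against 16.2% and 16.4% of all probes.

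Of proposed targets and receptors of CIRBP, a list of 8 genes, only Clock and Tlr4 were above background. Limma called 0 of 2 in any culture or in their mean, where it called 4.61% of all probes higher and 5.21% lower. In that mean 1 of 2 had an unadjusted p under 0.05, against 3864 of the 14899 probes. With 2 genes the lack of calls shows little. Clock, whose messenger CIRBP binds, had a mean hypoxia change of 0.17, and Tlr4, a receptor proposed for CIRBP outside the cell, one of 0.50. Hif1a was above background on 0 of 12 arrays. Of 20 circadian clock genes 5 were above background, and in the mean of the 3 cultures limma called 0. There 2 of 5 had an unadjusted p under 0.05. The shares over all probes are those just given, and 5 genes are too few to read either count as a result. In WT cultures the clock kinase Csnk1e was called higher (1 of 5, against 5.3% of all probes), with a median change of 0.52 over the 5.

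Of 31 listed HIF targets 12 had a named probe and all 12 were above background. In the mean of the 3 cultures 7 rose and 0 fell, against 4.61% and 5.21% of all probes. Their median change was 0.51, against 0.01 for all probes. Ldha, which makes lactate from pyruvate, went from 11.46 and 11.29 to 13.11 and 12.97 in WT cultures. In ATF2-/- cultures without 4-OHT it went from 11.74 and 11.96 to 12.47 and 12.35, and with 4-OHT from 11.80 and 11.84 to 12.75 and 12.60. Its mean rise was 1.03 ± 0.09 (SE, limma adjusted p = 1.1e-04). The glycolytic enzymes Tpi1 (1.05), Eno1 (0.71), Pgk1 (0.69) and Aldoa (0.55) and the cytokine Mif (0.47) rose too, though the call of Mif was lost without any 1 of 10 arrays, with limma adjusted p-values up to 0.13. The 7th was Egln1, an oxygen sensor that marks HIF for destruction. Its change of 0.44 had a limma adjusted p just under the threshold (0.05 when rounded), and the call was lost without any 1 of 10 arrays (adjusted p up to 0.151) and under 7 of 10 other choices. With 4-OHT limma called 0 of the 12, against 0.0268% of all probes higher and 0% lower. There 7 had an unadjusted p under 0.05, against 1245 of the 14899 probes, and the median change was 0.57. By the test 3 rose and 1 fell in ATF2-/- cultures without 4-OHT, against 6 and 0 in WT cultures. Of all probes, 5.62% were called higher and 6.65% lower in the former, and 5.3% and 4.85% in the latter.

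The order of cultures differed between Cirbp and Ldha. The hypoxia change of Ldha was 1.66 in WT cultures, 0.86 with 4-OHT and 0.56 in ATF2-/- cultures without 4-OHT, where that of Cirbp was largest in size. Whether the orders differ beyond the spread was not tested.

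Heat shock factor targets were listed because heat raises them, whereas mild cold raises CIRBP. Of 9 above background 2 rose and 0 fell in the mean of the 3 cultures, against 4.61% and 5.21% of all probes. Their median change was 0.38. Hspd1, the mitochondrial chaperonin HSP60, rose by 0.74 ± 0.10 (SE, limma adjusted p = 0.0011). Fkbp4, a co-chaperone of HSP90, rose by 0.63 ± 0.10 (SE, limma adjusted p = 0.0029). The small heat shock protein Hspb1 was called lower in ATF2-/- cultures without 4-OHT (change -2.21, limma adjusted p = 1.3e-04), while its change in the mean was -0.29 and did not pass. Of the 2 genes of the unfolded protein response above background, the transcription factor Xbp1 rose by 0.45 ± 0.09 (SE, limma adjusted p = 0.00972), and the other did not pass in that mean. In the mean without the ATF2-/- cultures that had no 4-OHT, 5 of 12 HIF targets, 3 of 9 heat shock factor targets, 1 of 9 stress granule genes and 0 of 2 unfolded protein genes were called higher, against 2.75% of all probes, and 0 of these genes were called lower, against 2.48%.

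**Figure D3:**
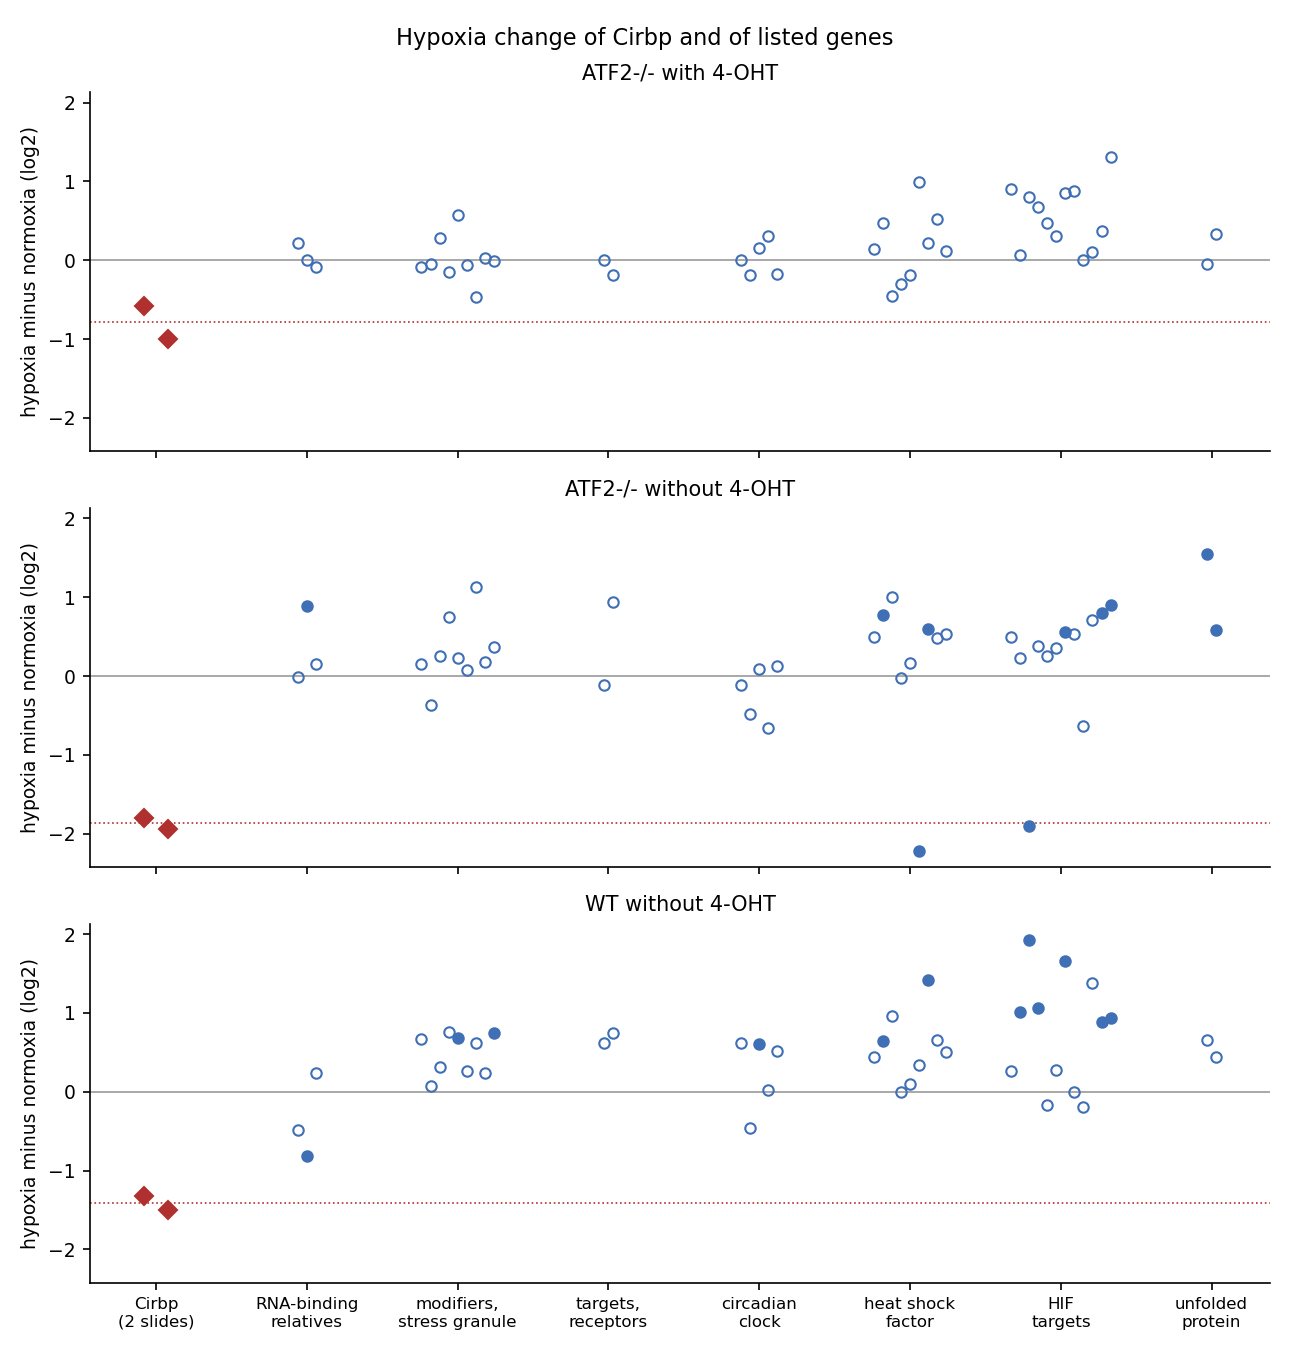
Hypoxia minus normoxia on the normalized log2 scale in each culture. Red diamonds are the 2 within-slide differences of Cirbp and the dotted line is their mean; circles are single genes of 7 lists, filled where the limma adjusted p was under 0.05. Cirbp lies at -0.79, -1.87 and -1.41 from top to bottom, and most HIF targets lie above 0.

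The pattern of Cirbp over all 12 arrays was then compared with that of 2668 named genes that were above background on every array. Pearson's r is given as a description, since all points come from the same 12 arrays and share their normalization, and the median r was -0.06. The most alike was Prxl2b, an enzyme that makes prostaglandin F from its precursor, with r = 0.93. Its values in ATF2-/- cultures without 4-OHT were 8.07 and 7.58 in normoxia and 5.91 and 6.34 in hypoxia. In WT cultures they were 7.62 and 7.81 against 6.58 and 6.62. With 4-OHT they were 7.59 and 8.16 against 7.61 and 7.49, so this gene shared with Cirbp a smaller change in those cultures.

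The next in likeness were Psmf1, an inhibitor of the proteasome, with r = 0.89, Abcf3, of the ABC protein family, with r = 0.88, and Drosha, the nuclease that starts microRNA processing, also at an r of 0.87. Rtf2, 4930455G09Rik, Gnl1, Slc4a3, Tmem198b and Pink1, a kinase that guards mitochondria, followed with r from 0.86 down to 0.81. All 10 genes had negative hypoxia differences in all 3 cultures, and in each of them the difference with 4-OHT was the nearest to 0, from -0.40 in Pink1 to -0.05 in Psmf1. Both features follow from choosing genes for likeness to Cirbp. The most opposite genes were Ccnt2, a cyclin of transcription elongation, with r = -0.93, and Fkbp4 and Celf1, an RNA-binding splicing regulator, both with r = -0.92. Pfkl, a phosphofructokinase of glycolysis, had r = -0.88 and Plekha5 r = -0.86. Only 1 gene had r over 0.9 and 3 genes had r under -0.9.

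**Figure D4:**
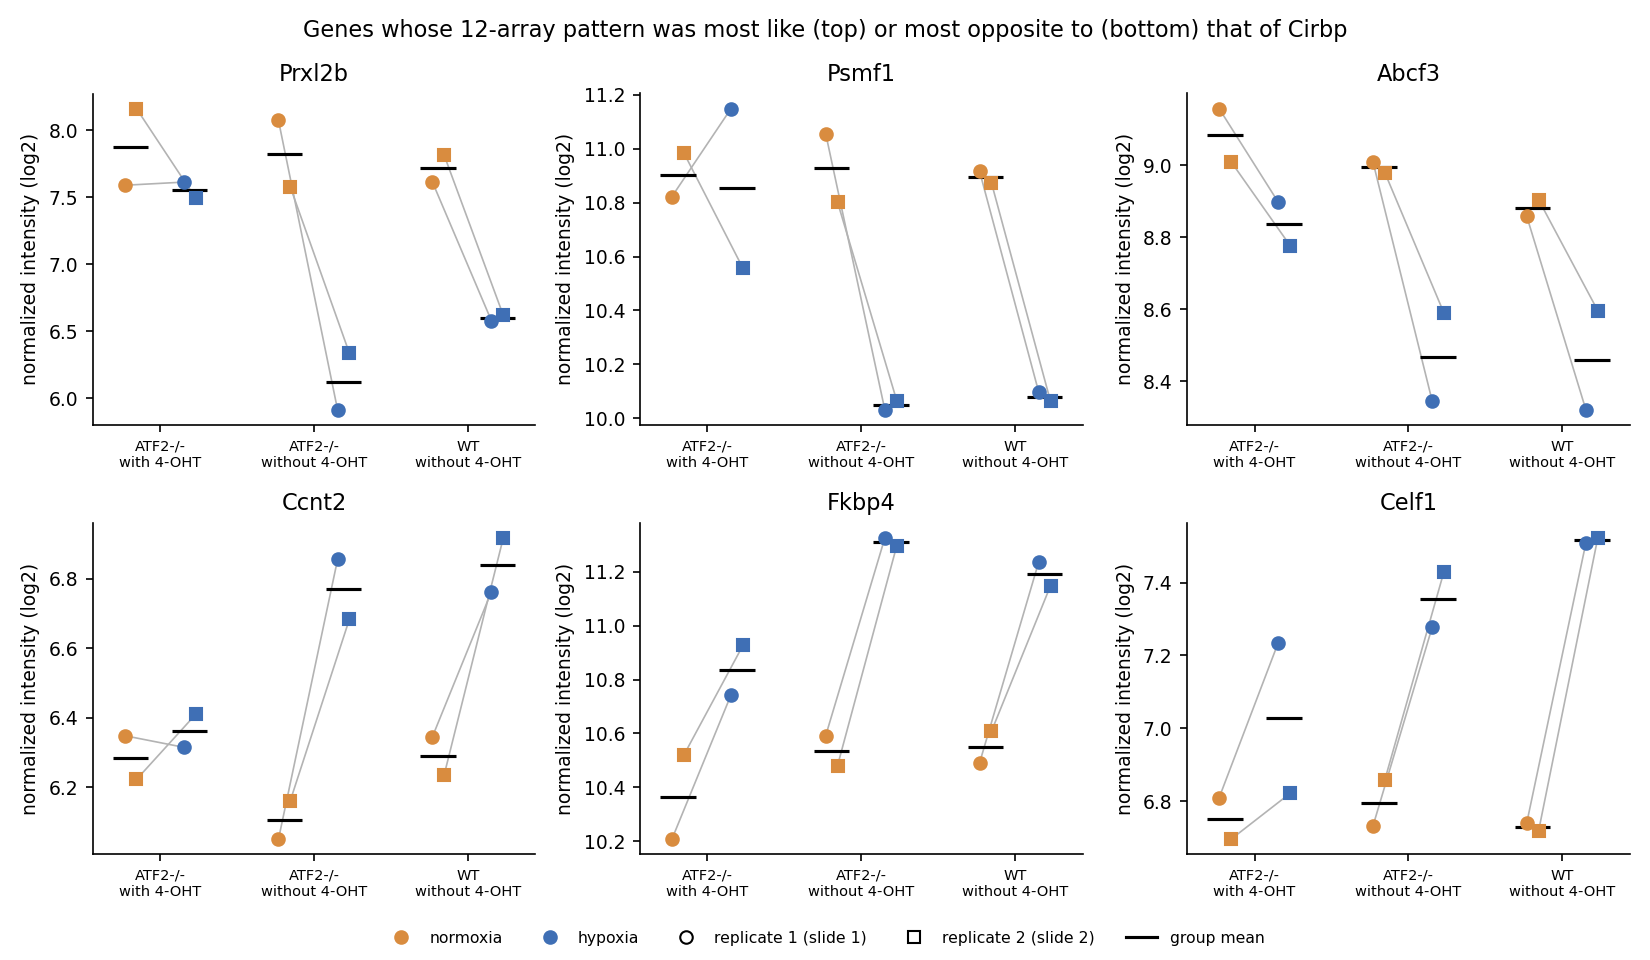
Normalized log2 intensity of the 3 named genes with the highest r with Cirbp over the 12 arrays (top) and the 3 with the lowest (bottom); each axis has its own range. Points are single arrays, circles for slide 1 and squares for slide 2, grey lines join arrays of the same culture and slide, and black bars are group means. Prxl2b and Psmf1 have their lowest values in hypoxia without 4-OHT, and Ccnt2, Fkbp4 and Celf1 their highest.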

How the data were processed

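Total RNA of primary mouse melanocytes was amplified and labelled by the authors, hybridized to Illumina Mouse-6 BeadChips and read with BeadStudio 3.0. The deposited non-normalized values are mean bead intensities on a linear scale, and each comes with the authors' detection p-value, which sets a probe against negative control beads. Intensities that the authors normalized by cubic spline served only as an alternative, with values under 16 set to 16 before log2 was taken. In these files 0 columns belong to other samples.

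The neqc function of limma 3.58.1 (R 4.3.3) was run on the non-normalized intensities. It estimates background through the detection p-values, adds an offset of 16, equalizes the arrays by quantiles and takes log2. The smallest step of a detection p is 1 in 1603, yet 5 bright probes had values between 0 and that step. Set to 0, these give a background SD of 5.86 to 7.00 units. As deposited, they inflate it to 100 to 178, so the first was used. With the values as deposited, the hypoxia difference of Cirbp was smaller in size in ATF2-/- cultures without 4-OHT and in WT cultures, as given below. After 52 control probes were set aside, 14899 probes were kept that reached a detection p under 0.01 on 1 array or more. Probe names held 11857 candidate gene numbers, of which RefSeq (GRCm38.p6) listed 9796, and 4176 kept probes had a name. A gene with several kept probes was represented by the brightest. Folds of probes near background are understated by the offset.

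The 6 group means were fitted to all 12 arrays in limma, with moderated tests on 6 residual degrees of freedom, Benjamini-Hochberg adjustment over all kept probes and a threshold of 0.05. The study's DiffScore of 60 could not be rerun, so an unadjusted p under 1e-06 was tried in its place. Cirbp and the gene lists were chosen with earlier results of these data known. Every member of the first 3 lists could be named, as could up to 6 called members of each other list by size of mean change, and the 10 highest and 5 lowest correlations with Cirbp. Csnk1e, Egln1, Egln3, Hspb1, Caprin1, Eif4e, Krt17 and the marker genes were named after their values were seen. Replicate numbers mark the slide by the labels. Same-numbered arrays deviated from their group means with correlations of -0.22 to 0.60 (12 of 15 pairs of groups over 0.1), so slides pair the arrays by label. The script was tested on simulated data. Promoter letters were searched in Python. Alternatives were the detection p-values as deposited, intensities left uncorrected for background, scaling by the median, an offset of 50, the authors' values, other filters, the slide as a block, fits to only the arrays compared and leaving out each array.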

Additional observations from a re-analysis of the deposited data

Results flagged for a closer look

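Among the listed genes, 3 were called in opposite directions in hypoxia in ATF2-/- cultures without 4-OHT and in WT cultures by limma. They were chosen for these opposite calls, so the difference between the changes is a description and was not tested separately. Egln3, a HIF target that marks HIF for destruction, changed by -1.90 in the former and 1.93 in the latter, a difference of -3.83. Krt17, a keratin of the epidermis and hair follicle, changed by -1.69 and 1.02, a difference of -2.70. Rbmx, the glycine-rich relative of Cirbp, changed by 0.88 and -0.81, a difference of 1.69. Skeletal muscle markers other than Eno3 were at background in hypoxia and not in normoxia in the former cultures, and at background at both oxygen levels in the latter. Their part in the 3 differences was not tested.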

How the results depend on the processing

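Cirbp was lower in hypoxia in every culture under all alternatives run, and on the 2 slides taken singly. Its difference moved beyond the spread between replicates in these cases. With the detection p-values as deposited it was -1.20 in ATF2-/- cultures without 4-OHT, -0.85 in WT cultures and -0.90 in the mean of the 3. With an offset of 50 these were -1.57, -1.19 and -1.15. It was -1.71 without background correction and -2.03 on the authors' values in ATF2-/- cultures without 4-OHT, and -1.22 in WT cultures under median scaling. In ATF2-/- cultures with 4-OHT the detection p-values as deposited gave -0.66, within that spread, so the 3 cultures then lay closer together. The mean of ATF2-/- cultures with 4-OHT and WT cultures, added after seeing the data, gave -1.10. Leaving out 1 array at a time gave -0.99 to -0.59 in ATF2-/- cultures with 4-OHT, the ends being those without normoxia replicate 1 and without normoxia replicate 2.

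The tested differences of Cirbp were less firm. For ATF2-/- cultures with against without 4-OHT, 0.39 at first, the call was lost with detection p-values as deposited (0.11, limma adjusted p = 0.456), median scaling (0.40, adjusted p = 0.227), no filter (0.39, adjusted p = 0.0518) and only the arrays compared (0.39, adjusted p = 0.0931). Single omissions gave 0.29 to 0.49 and adjusted p-values of 0.00883 to 0.143, and the call stood only without replicate 1 of ATF2-/- with 4-OHT in normoxia. For ATF2-/- cultures with 4-OHT against WT, 0.43 at first, it was lost with detection p-values as deposited (0.22, adjusted p = 0.146), median scaling (0.45, adjusted p = 0.2195) and only the arrays compared (0.43, adjusted p = 0.0658). Single omissions gave 0.33 to 0.53 with adjusted p-values of 0.00751 to 0.126, and the call was lost without either hypoxia array with 4-OHT or any 1 of the 4 WT arrays. ATF2-/- without 4-OHT against WT turned to -0.019 without hypoxia replicate 1 of the former and to -0.020 without normoxia replicate 1 of the latter, and single omissions ranged from -0.020 to 0.095. With the replicate number, and so the slide, as a block, the limma adjusted p was 0.0337 for ATF2-/- cultures with against without 4-OHT, 0.0270 for those with 4-OHT against WT and 0.852 for those without it against WT, and no call and no count of probes changed by over 1.5 times.

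Counts of probes past the threshold are given for hypoxia in ATF2-/- cultures with 4-OHT, ATF2-/- cultures without it, WT cultures and the mean, then for the 3 comparisons of cultures in the order above with ATF2-/- without 4-OHT against WT second to last. They were 0, 688, 96, 313, 2243, 1868 and 1782 under median scaling and 0, 188, 15, 67, 277, 352 and 416 at an unadjusted p under 1e-06. Without a filter the first was 8. With only the arrays compared the first was 0, that of WT cultures 5196 and that of ATF2-/- without 4-OHT against WT 6411. The mean of 2 kinds of culture gave 780. Leaving out 1 array gave 0 to 1696, 750 to 2727, 120 to 2789, 685 to 3343, 3316 to 6067, 2659 to 5364 and 2639 to 5679. For 12 listed genes that rose in the mean, 216 of 264 values kept their call, 48 lost it and 0 reversed; apart from single omissions, the call of Egln1 was lost under 7 of 10 alternatives, Mif under 5, Pgk1, Tial1 and Xbp1 under 2, and Aldoa and G3bp1 under 1. Single omissions lost it for Egln1 and Mif in 10 of 12 cases and for Tial1 in 8. A further Cirbp probe could not be tried, since only 1 was recognised. The number of arrays and the low signal of the probe over background limit the precision.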
